A study of Mus musculus with 1187 samples.

Results

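The subunits of the oxidative phosphorylation machinery were read in brain endothelial cells of adult mice, as the genes whose symbol begins with Ndufa, Ndufb, Ndufs, Ndufv, Uqcr, Cox4, Cox5, Cox6, Cox7, Cox8 or Atp5, or with mt-Nd, mt-Co, mt-Atp or mt-Cytb. This symbol rule took 99 of 46517 genes in the count table and left out 4 symbols ending in -ps. Of the 99 members, 77 are nuclear structural subunits, 13 are encoded on the mitochondrial genome and 9 are assembly or accessory factors that share the symbols (7 Ndufaf genes, Atp5s and Atp5sl). By complex, the nuclear structural members number 34 in complex I, 8 in complex III, 20 in complex IV (with Ndufa4 and Ndufa4l2) and 15 in complex V, and the mitochondrially encoded ones 7, 1, 3 and 2.

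The study sorted single brain endothelial cells of 3-month-old C57BL/6 mice that carried the ret allele of Pdgfb, which lacks the motif that retains PDGF-B at the cell surface, either as Pdgfb ret/+ or as Pdgfb ret/ret. All mice also carried the Cldn5-GFP and Cspg4-DsRed reporters, and cells positive for GFP and negative for DsRed were taken, so a cell's place in the sort rests on transgenes driven by an endothelial and a mural cell promoter. The labels name 590 ret/+ and 597 ret/ret cells and no animal, while the table names its columns after plates and wells, so no column could be given a genotype. The 1187 cells were therefore 1 pooled sample, with values given by plate (521, 522, 523 and 524, with 300, 290, 285 and 312 cells). Plate may coincide with genotype or animal, and the 2 cannot be told apart. With 1 sample there was no test.

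Oxidative phosphorylation couples the passage of electrons along the inner mitochondrial membrane to the making of ATP. Complex I takes electrons from NADH, complex III passes them from ubiquinol to cytochrome c, complex IV hands them to oxygen, and complex V, the ATP synthase, uses the resulting proton gradient. Complexes I, III, IV and V are built from subunits of both genomes, while complex II is wholly nuclear. The endothelium of the brain is known for a rich supply of mitochondria relative to other endothelia, and for active glycolysis.

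Cells held from 100779 to 584112 gene-assigned reads (median 360947), 418924921 in all. Levels are CPM, the reads of a gene scaled to a fixed total of all gene-assigned reads. Intervals and limits cover counting error only, because reads of these libraries are not independent molecules. The label of the cells was checked on 8 pan-endothelial genes, among them Cldn5, Pecam1 and Cdh5, which were all above 20 CPM and summed to between 10767 and 12566 CPM on a plate. Of 9 pericyte markers 1 reached 20 CPM, and their sum ranged from 22.4 to 147.8 CPM over plates. The sums were 192.9 to 295.3 CPM for 6 astrocyte markers, 63.9 to 156.6 CPM for 7 microglia markers, 44.2 to 62.7 CPM for 5 oligodendrocyte markers and at most 43.2 CPM for the other lists. Only 24 cells had 3 markers of another cell type at 100 CPM or more.

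The 13 mitochondrially encoded members fell into a group with ample reads and a group close to 0, and, with mt-Atp6 as the exception, the split went with how much of each gene's sequence recurs elsewhere in the annotation. Each transcript in GENCODE M21, on the GRCm38 build, was cut into 50-base windows, and a window counted as shared where another annotated transcript holds it on either strand. mt-Cytb, the mitochondrial subunit of complex III, had 2254 CPM (95% counting interval 2249 to 2258) and no shared window. Of the complex I subunits, mt-Nd1 had 1750 CPM with 0% shared, mt-Nd5 had 1109 CPM with 7.61%, mt-Nd2 had 445.9 CPM with 8.19%, mt-Nd4 had 675.3 CPM with 62.2% and mt-Nd6 had 168.7 CPM with 0%. mt-Co1, the catalytic core of complex IV, had 1616 CPM with 51.1% shared. mt-Atp8, a small subunit of the ATP synthase membrane part, had 311.7 CPM with none.

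The other 5 mitochondrial members shared more than 90% of their windows. mt-Co2, which carries the copper site that takes electrons from cytochrome c, had 0 reads in 1187 cells, which allows up to 0.00716 CPM, and 100% of its windows were shared. mt-Co3 had 275 reads in all (0.66 CPM, 99.9% shared), mt-Nd3 had 423 (1.01 CPM, 98.0%) and mt-Nd4l had 271 (0.65 CPM, 98.8%). mt-Atp6, the proton channel subunit of complex V, stood apart in this group with 37326 reads (89.1 CPM) and 99.5% shared. Per kilobase of exon, the 8 members with less sharing ran from 325 CPM per kb (mt-Nd6) to 1970 CPM per kb (mt-Cytb), mt-Atp6 was at 131 CPM per kb, and mt-Nd3, mt-Nd4l and mt-Co3 were at 2.90, 2.18 and 0.84 CPM per kb. The sources used here do not state how reads with several matches were handled, and the part of shared sequence in these low counts was not tested. The levels of these 5 members are therefore uncertain and say nothing of how much of their RNA the cells hold.

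The partners of mt-Atp6, mt-Co3, mt-Nd3, mt-Nd4l and mt-Nd4 lie side by side on chromosome 1 with copies of mt-Co1 and mt-Co2, between 24611535 and 24616197 on the minus strand, as annotated pseudogenes. Most of these copies had no reads either: Gm28661, the copy of mt-Co2, had 0 reads, Gm28437 (mt-Co3) had 0, Gm10925 (mt-Atp6) had 0 and Gm10222 (mt-Nd4l) had 0, whereas Gm28438 (mt-Nd3) had 1610 reads, more than the mitochondrial gene itself. The first 60 bases of mt-Co2 are shown with their chromosome 1 copy and with a copy on chromosome 2 (Gm13341, 279 reads), and a stretch of mt-Co3 with its chromosome 1 copy, because these 2 genes have near-zero counts. Capitals mark bases that differ from the mitochondrial sequence. All are GRCm38, read 5′ to 3′ along the gene.
mt-Co2 at chrM:7013-7072, plus strand: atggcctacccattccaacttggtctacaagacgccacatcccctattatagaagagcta
Gm28661 at chr1:24615506-24615565, minus strand: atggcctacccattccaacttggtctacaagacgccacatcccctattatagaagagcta
Gm13341 at chr2:22587903-22587962, minus strand: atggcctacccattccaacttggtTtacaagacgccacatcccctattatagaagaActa
mt-Co3 at chrM:8969-9028, plus strand: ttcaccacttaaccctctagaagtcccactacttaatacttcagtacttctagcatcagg
Gm28437 at chr1:24613550-24613609, minus strand: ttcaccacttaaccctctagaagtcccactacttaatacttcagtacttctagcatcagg
The chromosome 1 copies had 0 mismatches to the mitochondrial sequence in these stretches and the chromosome 2 copy had 2.

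**Figure D1:**
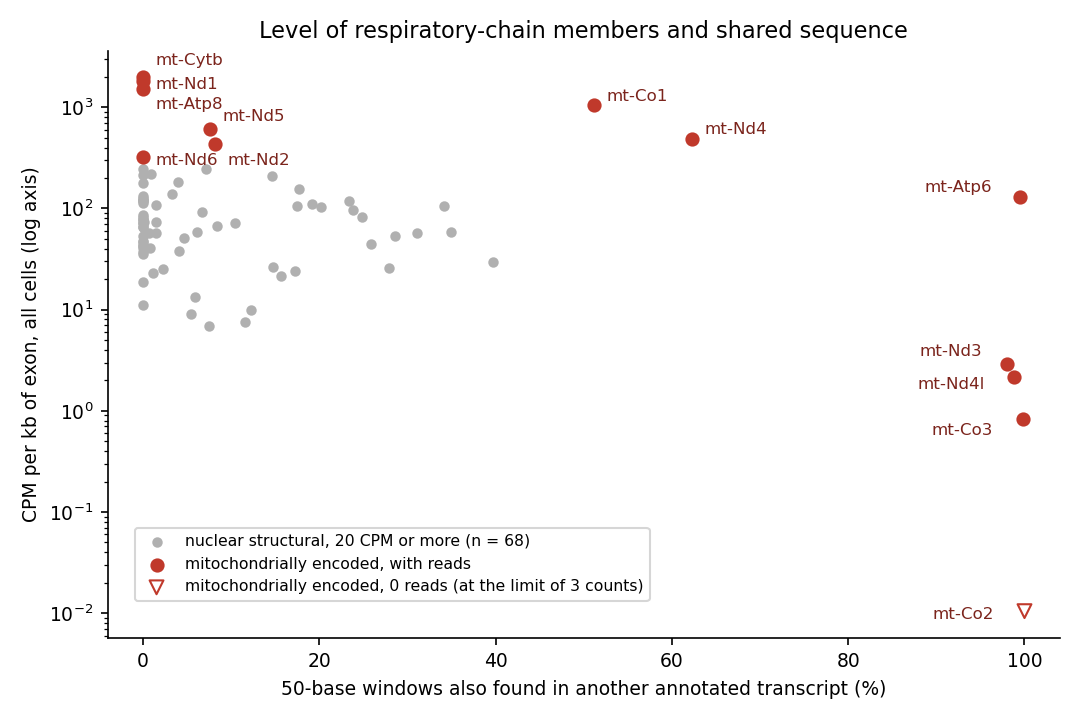
Level of each member over all cells (CPM per kb of exon, log axis) against the percent of its 50-base windows that another annotated transcript holds; red points are mitochondrially encoded members, grey points are the 68 nuclear structural members at 20 CPM or more, and the open triangle is mt-Co2 at the limit of 3 counts. The 8 mitochondrial members under 90% shared windows lie at or above 325 CPM per kb, and mt-Nd3, mt-Nd4l and mt-Co3, all above 90%, lie at 2.90 CPM per kb or below.

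The nuclear members showed no such gap. The 11 nuclear members at 20 CPM or more with at least 20% of windows shared had a median of 58.4 CPM per kb, the 26 with 1% to 20% had 58.1 and the 31 under 1% had 71.2. The highest share among them was 39.7% (Ndufs3), so the range in which the mitochondrial counts were near 0 was not reached by any of them. For some of the 11, such as Ndufb6, Uqcrc2 and Atp5o, the partner gene overlaps the member at the same place in the genome. Such sharing differs in kind from that of the mitochondrial genes with their chromosome 1 copies.

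Nuclear subunits were abundant among the genes of these cells. The 68 structural members at 20 CPM or more had a median of 66.9 CPM per kb (quartiles 40.0 and 107.9), against 13.7 (7.40 and 29.5) over the 7903 genes of that level with a known length. Exon length here is the union over annotated transcripts, so genes with long alternative forms, such as Atp5l with 6443 bases, come out low per kb. Summed over the 77 nuclear structural members, reads made up 8964 CPM (counting interval 8955 to 8973), and the mitochondrially encoded members made up 8422 CPM (8413 to 8431), a ratio of mitochondrial to nuclear sums of 0.94. Here and below, the mitochondrial sum holds almost no reads of mt-Co2, mt-Co3, mt-Nd3 and mt-Nd4l, whose levels are uncertain. Neither the sum nor the ratio therefore measures how much RNA the cells hold from the mitochondrial genome.

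In complex I, the accessory subunits Ndufa2 (139 CPM per kb) and Ndufa1 (132) led, and the median of nuclear members was 57.7. Ndufa2 had 83.2, 82.3, 72.3 and 80.0 CPM on plates 521 to 524. In complex III, Uqcrfs1, the Rieske iron-sulfur protein, had 121 CPM per kb and the small subunit Uqcr10 had 119, with a median of 109 for the complex. Uqcrfs1 had 161.6, 149.4, 184.2 and 166.2 CPM on the plates. In complex IV, Cox6b1 (247 CPM per kb) and Cox6a1 (246) led, with a median of 124 over the 12 nuclear members at 20 CPM or more. Cox6b1, which lies on the side of the complex that faces cytochrome c, had 182.3, 175.7, 169.6 and 172.1 CPM on the plates.

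In complex V, Atp5b, the catalytic beta subunit, had 221 CPM per kb and Atp5c1, the gamma subunit of the rotor, had 182, with a median of 50.5. Atp5b had the highest CPM of the nuclear members, at 936, with 883, 988, 948 and 931 on the plates, and 96.1% of cells had a read of it (exact Clopper-Pearson interval 94.9% to 97.1%) when each cell was thinned to 100000 reads, called fixed depth here. The log2 of highest over lowest plate was 0.20 for Ndufa2, 0.30 for Uqcrfs1, 0.10 for Cox6b1 and 0.16 for Atp5b. The 3 genes for the membrane ring subunit of the ATP synthase, which encode the same mature protein, were all read: Atp5g3 at 102.7 CPM (47.1 per kb), Atp5g2 at 44.3 CPM (26.4 per kb) and Atp5g1 at 36.8 CPM (7.49 per kb).

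**Figure D2:**
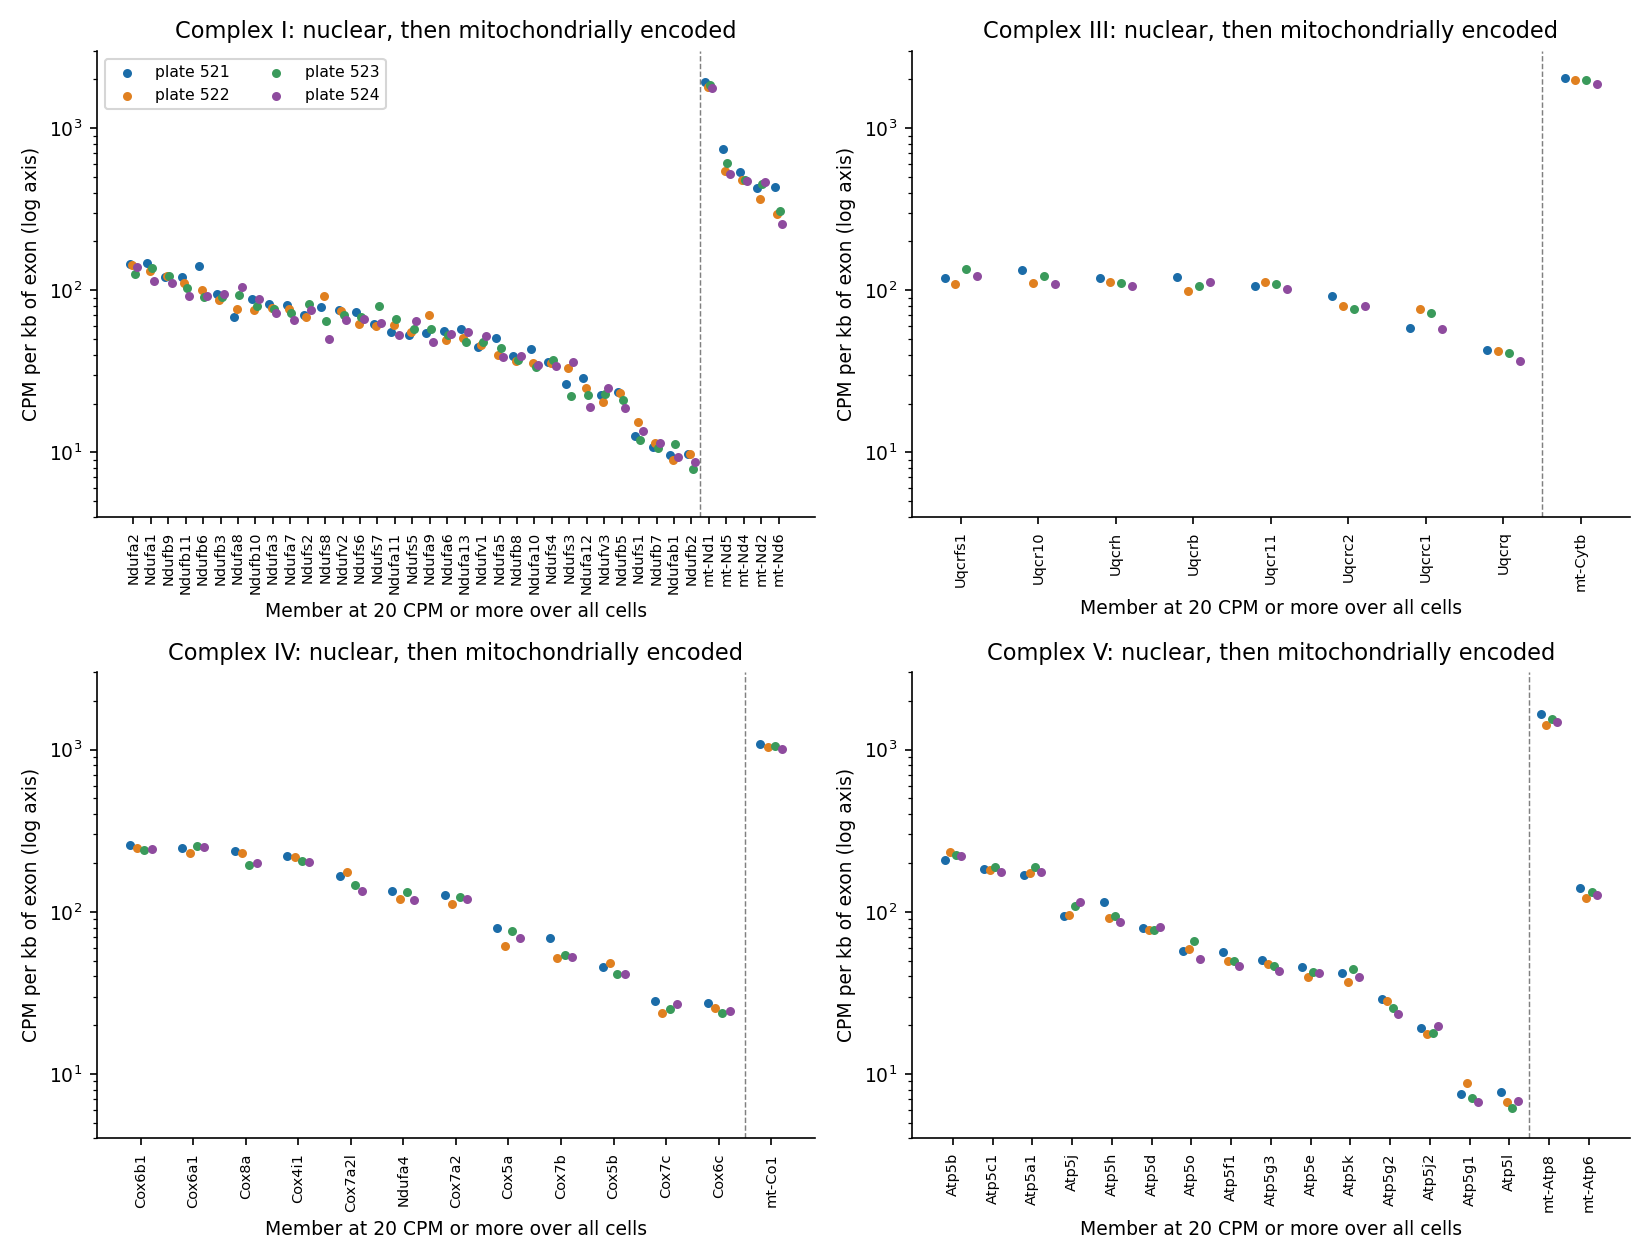
CPM per kb of exon on each plate (log axis) for every structural member at 20 CPM or more over all cells, by complex, ordered by level, with mitochondrially encoded members right of the dashed line. The 4 plates lie close together for most members, and the mitochondrially encoded members other than mt-Atp6 lie above every nuclear member of their complex.

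The forms of complex IV subunits known from muscle, lung, testis or hypoxic cells were close to absent, and where reads occurred they came from few cells. Cox4i1, the common form of subunit 4, had 327.7 CPM and 341.6, 336.9, 318.7 and 313.9 on plates 521 to 524, and at fixed depth 94.8% of cells had a read of it. Cox4i2, its form in lung and in pericytes, had 449 reads in 23 cells (1.07 CPM, with 0.19, 0.54, 2.95 and 0.65 on the plates). Per kb the common form had 211 CPM and Cox4i2 had 1.36. Among cells with a Cox4i2 read the 9 pericyte markers summed to 397 CPM, against 66.3 CPM in cells without, and 30.4% of them against 8.33% had a read of the pericyte gene Rgs5.

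Ndufa4, now placed in complex IV, had 174.6 CPM, while Ndufa4l2, its hypoxia-inducible paralog that is also strong in pericytes, had 411 reads in 20 cells (0.98 CPM). Pericyte markers summed to 636 CPM in the cells with a Ndufa4l2 read and to 62.1 CPM in the others. Cox7a1, the heart and muscle form of subunit 7a, had 163 reads in 17 cells (0.39 CPM), with pericyte markers at 397 CPM against 68.3 CPM, beside 113.9 CPM for Cox7a2 and 230.1 CPM for Cox7a2l. The marker excess lay in few cells: a read of Rgs5 occurred in 4 of the 20 cells with Ndufa4l2 (20.0%, against 8.57% of the others) and in 2 of the 17 with Cox7a1 (11.8%, against 8.72%). Whether pericyte RNA gave these reads was not tested.

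Cox6b2, a testis form, had 121 reads in 7 cells, and in these the pericyte markers were at 47.0 CPM against 72.6 CPM elsewhere. Cox7b2, Cox8b and Cox8c had 9, 8 and 9 reads, each in 1 cell. Cox6a2, the muscle form of subunit 6a, had 0 reads, a limit of 0.00716 CPM, where Cox6a1 had 172.5 CPM. The common partners Cox7b and Cox8a had 69.1 and 133.0 CPM. The 8 tissue forms make up all nuclear structural members outside Ndufb4 (19.9 CPM) that were below 20 CPM over all cells.

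**Figure D3:**
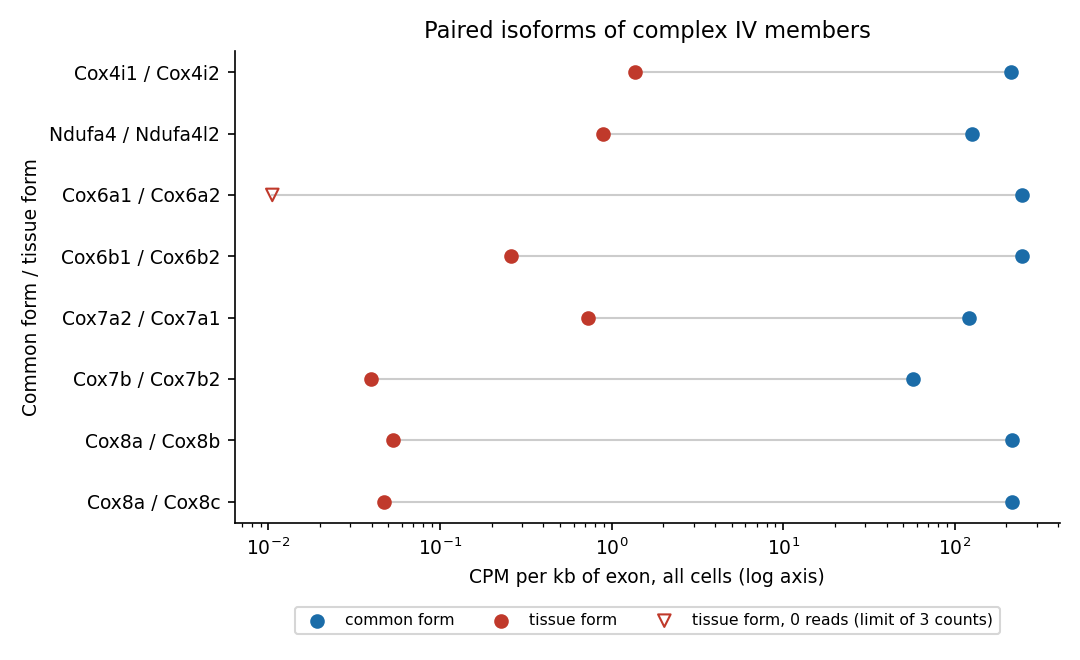
CPM per kb of exon over all cells (log axis) for the common form (blue) and the tissue form (red) of paired complex IV members, with the open triangle at the limit of 3 counts for a form with 0 reads. Each common form lies more than 10-fold above its tissue form, with Cox4i1 at 211 and Cox4i2 at 1.36 CPM per kb.

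Between plates few nuclear members had a wide range. The highest plate was at least 1.5-fold the lowest for 4 of 69 measured nuclear structural members, while 44.6% of 9059 genes measured passed that fold. Measured means 20 CPM or more on at least 1 plate, and log2 ratios use a prior of 1 CPM. The median log2 of highest over lowest plate was 0.27 for the nuclear members, 0.20 for the 9 measured mitochondrial members and 0.54 over all genes. Among the 2133 genes whose level lies between the quartiles of the nuclear members, 650 passed the fold and the median was 0.44.

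The 4 nuclear members past the fold all belong to complex I. Ndufs8, an iron-sulfur subunit, had 101.9, 119.8, 83.3 and 64.8 CPM on plates 521 to 524, highest on 522 and lowest on 524 (log2 0.88). Ndufs3, a core subunit, had 57.6, 72.2, 48.8 and 78.3 CPM (0.67), which was highest on 524 and lowest on 523. Ndufb6 had 93.1, 65.9, 60.2 and 60.5 CPM (0.62), so plate 521 stood above the rest. Ndufa8 had 59.2, 65.6, 80.5 and 89.6 CPM (0.59), lowest on 521 and highest on 524. The order of the plates thus differed among the 4, and all were read in about as many cells, from 46.4% for Ndufs3 to 55.0% for Ndufb6 at fixed depth.

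mt-Nd6, the only subunit encoded on the light strand of the mitochondrial genome, was the single mitochondrial member past the fold, with 225.4, 154.2, 159.7 and 133.9 CPM (0.75). mt-Nd5 came next with 1361, 998, 1116 and 952 CPM (0.52). mt-Nd1 had 1831, 1714, 1755 and 1699 CPM and mt-Co1 had 1664, 1611, 1626 and 1565, a spread of at most 0.11 on the log2 scale. Of the 6 measured assembly factors 2 passed, with Ndufaf4, an early complex I assembly factor, at 38.8, 21.0, 29.2 and 36.0 CPM (0.86) and a median of 0.57 for the group. The assembly factors were also read in fewer cells, Ndufaf4 in 18.9% at fixed depth.

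The small differences leaned toward 1 order of the plates. Plate 521 was the highest plate for 36 of 69 nuclear members and for 7 of 8 mitochondrial members under 90% shared windows, and plate 524 was the lowest for 29 and for 6. Over all genes measured, plate 521 was the highest for 28.7% and plate 524 the lowest for 28.1%. Not every complex had this order. The nuclear sum was 9159, 9007, 9020 and 8678 CPM on plates 521 to 524, a log2 range of 0.08. The mitochondrial sum was 9019, 8176, 8472 and 8006 CPM, a log2 range of 0.17. Without plate 521 the mitochondrial range was 0.082, and without plate 524 the nuclear range was 0.024. The nuclear members of complex I summed to 3057, 2983, 2939 and 2864 CPM, highest on plate 521, whereas complex V, at 3134, 3177, 3242 and 3123 CPM, and complex III, at 1118, 1112, 1126 and 1035 CPM, were highest on plate 523. Plates also differed in the median number of genes read at fixed depth, 4158, 3881, 3276 and 3467, and in the share of cells with venous markers, described next. The part of either in the plate order was not tested.

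To place members along the vessel tree, each cell was classed by zone markers after thinning to 100000 reads. A cell with a read of at least 3 of 12 arterial markers (such as Bmx, Sema3g and Hey1) and a lead of 2 over the venous count is called arterial-marked, and venous-marked is the mirror with 12 venous markers (such as Vwf, Nr2f2 and Slc38a5). The others were split into Mfsd2a-high cells, with at least 10 reads of the capillary lipid transporter Mfsd2a, and marker-poor cells. These are ranges of marker counts and not cell types: 251 cells had 2 or 3 arterial markers, 496 had 2 or 3 venous markers and 16 unzoned cells had 5 to 19 Mfsd2a reads. Arterial-marked cells numbered 187 (41, 36, 52 and 58 on plates 521 to 524), venous-marked 429 (171, 129, 54 and 75), Mfsd2a-high 374 (30, 72, 132 and 140) and marker-poor 197 (58, 53, 47 and 39). The contrasts share cells, so their values are given side by side.

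The nuclear sum was nearly level over the 4 ranges, with 8620 CPM in arterial-marked, 9148 in venous-marked, 9022 in Mfsd2a-high and 8784 in marker-poor cells. The mitochondrial sum spread further, with 7577, 8896, 8000 and 9071 CPM in the same order. Arterial-marked cells had the lowest pooled value of both sums. On single plates the mitochondrial sum of arterial-marked cells was 8468, 7426, 7886 and 6788 CPM, that of venous-marked cells 9155, 8400, 9207 and 8890, that of Mfsd2a-high cells 8007, 7744, 8173 and 7957, and that of marker-poor cells 9609, 8780, 9196 and 8495. Venous-marked and marker-poor cells lay above both other ranges on every plate, while arterial-marked and Mfsd2a-high cells changed places on plate 521.

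Arterial-marked and venous-marked cells were compared directly. The mitochondrial sum was 0.852-fold in arterial-marked cells (log2 -0.23, with -0.11, -0.18, -0.22 and -0.39 on plates 521 to 524). The nuclear sum differed by -0.09 on the log2 scale (-0.07, -0.11, -0.07 and -0.05). Against Mfsd2a-high cells, venous-marked cells had a mitochondrial log2 ratio of 0.15 (0.12 to 0.19 over plates) and a nuclear one of 0.02 (-0.05 to 0.05). Marker-poor cells had 0.18 (0.09 to 0.26) and -0.04 (-0.15 to 0.06). Arterial-marked cells had -0.08 (-0.23 to 0.08) and -0.07 (-0.12 to -0.02). The sign of the mitochondrial ratio was thus shared by 4 plates in every contrast but arterial-marked against Mfsd2a-high, and that of the nuclear ratio only where arterial-marked cells were on 1 side.

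**Figure D4:**
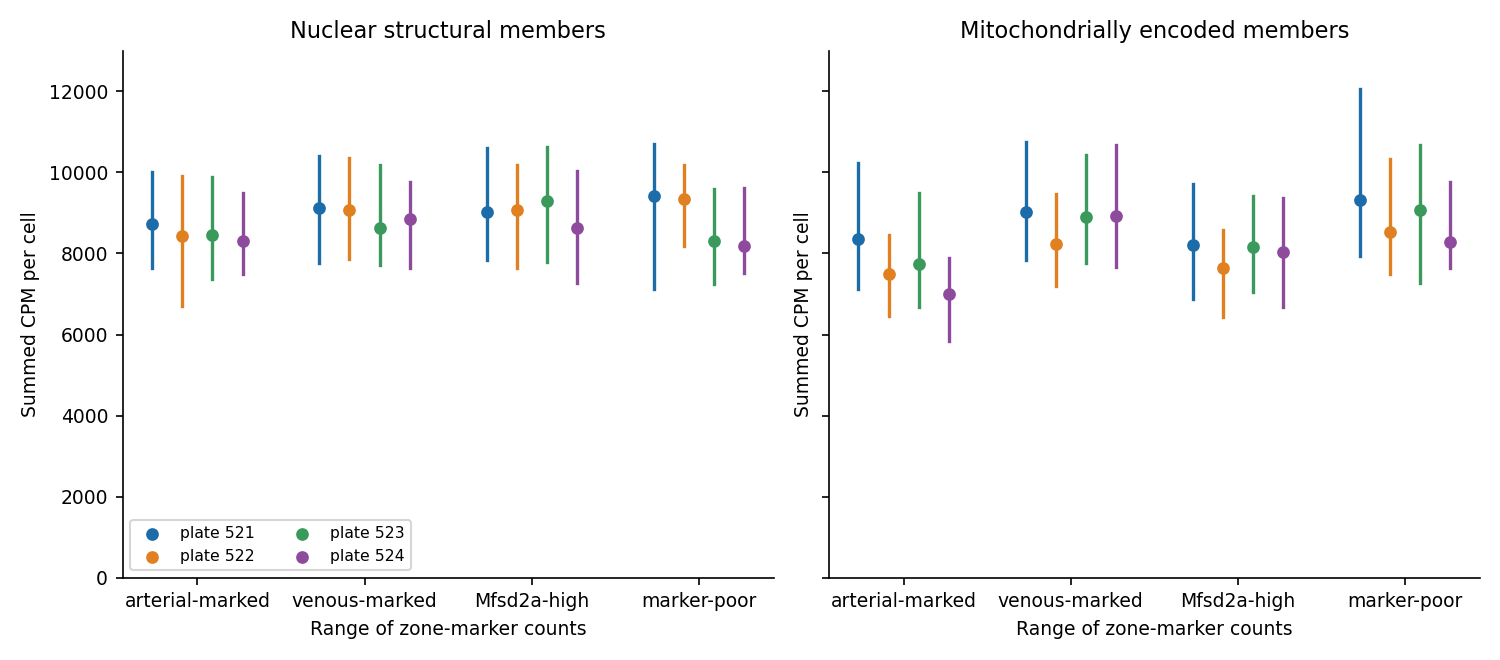
Summed CPM per cell of nuclear structural (left) and mitochondrially encoded (right) members by range of zone markers and plate; points are medians over cells and lines run from the lower to the upper quartile. The mitochondrial medians of arterial-marked cells (6990 to 8350 CPM) lie below those of venous-marked cells (8237 to 9016 CPM) on each plate, and the quartile lines overlap throughout.

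Cells within a range overlapped widely. The per-cell mitochondrial sum had quartiles of 6308 and 8837 CPM in arterial-marked cells and of 7624 and 10333 CPM in venous-marked cells. The median log2 of nuclear over mitochondrial sum, over the cells of all plates, was 0.13 in arterial-marked, 0.04 in venous-marked, 0.17 in Mfsd2a-high and -0.04 in marker-poor cells. On plates 521 to 524 it was 0.09, 0.10, 0.08 and 0.26 in arterial-marked cells. In venous-marked cells it was -0.04, 0.16, -0.03 and -0.04, so plate 522 had the opposite order. The pooled difference of arterial-marked from venous-marked cells, 0.089, was 0.029 without the 5 highest nuclear members. Other properties moved with the ranges. Dissociation stress genes (Fos, Jun, Egr1 and 5 others) summed to 3844 CPM in arterial-marked, 2698 in venous-marked, 2328 in Mfsd2a-high and 3011 in marker-poor cells. The median number of genes at fixed depth was 3839, 3997, 3372 and 3366, and pericyte markers summed to 41.0, 33.5, 145.6 and 44.9 CPM. Fibroblast markers summed to 6.04, 3.89, 29.6 and 69.8 CPM. Microglia markers summed to 64.3, 125.6, 106.6 and 151.2 CPM, which is the order of the pooled mitochondrial sum. On single plates microglia markers were 81.2, 155.3, 165.2 and 111.1 CPM (521) and 61.8, 102, 96.7 and 109 CPM (522). They were 61.7, 175.4, 130.6 and 322.2 CPM on 523 and 56.4, 56.6, 73.6 and 54.9 CPM on 524. Their order was that of the plate's mitochondrial sum on plate 522. On plate 523 it differed only between venous-marked and marker-poor cells, whose mitochondrial sums were 9207 and 9196 CPM. On plates 521 and 524 the orders differed, with mitochondrial sums on 524 of 6788, 8890, 7957 and 8495 CPM. The part of these properties in the mitochondrial values was not tested further. Without the 24 cells that had markers of another cell type, no ratio of sums changed sign.

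All 9 measured mitochondrial members were lower in arterial-marked than in venous-marked cells in the pooled ratio. mt-Nd1 had 1537 against 1842 CPM (log2 -0.26, with -0.19, -0.29, -0.28 and -0.30 on the plates) and mt-Cytb had 2053 against 2369 CPM (-0.21, with -0.11, -0.17, -0.12 and -0.38). mt-Co1 was the nearest to equal at 1505 against 1675 CPM (-0.15). mt-Nd6 was the farthest at 148.8 against 191.4 CPM (-0.36), but its plates gave -0.04, 0.00, -0.18 and -0.94, so this gap came mostly from plate 524. The other members kept a negative sign on all 4 plates, which makes 8 of 9. Over all 8772 genes measured, 12.6% were lower on every plate. The 9 members share cells and totals, so they are not separate observations. All but mt-Nd6, which lies on the other strand, are cut from common precursor RNAs.

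Against Mfsd2a-high cells the 9 mitochondrial members were all higher in venous-marked cells (log2 0.05 to 0.43) and all higher in marker-poor cells (0.13 to 0.44), with 8 of 9 higher on every plate in each case, beside 9.96% and 7.37% of all genes measured. The exceptions were mt-Nd2 in venous-marked cells (-0.03, -0.08, 0.38 and 0.23 on the plates) and mt-Nd4 in marker-poor cells (0.29, 0.23, 0.00 and 0.10). mt-Nd6 (141.5 CPM in Mfsd2a-high, 191.4 in venous-marked and 192.7 in marker-poor cells) and mt-Nd5 (975, 1218 and 1246 CPM) had pooled log2 ratios of 0.32 to 0.44 in these contrasts. These are also the members that differ most between plates, and the ranges mix the plates unevenly: without plate 521 the mt-Nd5 ratios were 0.21 in venous-marked and 0.22 in marker-poor cells, against 0.32 and 0.35 with it. In arterial-marked cells the sign was mixed, with 7 members below and 2 above Mfsd2a-high cells and 1 of the 9 lower on every plate, beside 10.7% of all genes. No mitochondrial member reached 1.5-fold in any contrast. The 2 mitochondrial ribosomal RNAs, which are no members, had 1063 against 1228 CPM (mt-Rnr1, log2 -0.21) and 3813 against 4168 CPM (mt-Rnr2, -0.13) in arterial-marked against venous-marked cells.

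Nuclear members were nearly flat between ranges at the 1.5-fold mark. In arterial-marked against Mfsd2a-high cells 0 of 69 measured nuclear members were higher and 0 lower by that fold, where 10.8% and 8.51% of all genes measured were. In venous-marked against Mfsd2a-high cells it was 0 and 0 of 68, beside 7.75% and 5.26% of all genes, and in marker-poor against Mfsd2a-high cells 0 and 0 of 69, beside 8.64% and 6.89%. Arterial-marked against venous-marked cells gave 0 higher and 1 lower, beside 10.6% and 10.3%. Among the 2127 genes between the quartiles of the nuclear members' level, the background share was smaller in every contrast and direction. Their higher and lower counts were 123 and 129, 95 and 77, 81 and 57, and 128 and 165, in the order of contrasts above. Medians over the nuclear members were -0.07, 0.06, -0.02 and -0.10 in these contrasts, beside 0.01, 0.01, 0.02 and 0.00 over all genes.

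By complex, arterial-marked against venous-marked cells had 21 of 34 nuclear members of complex I lower, 6 of 8 of complex III, 11 of 12 of complex IV and 13 of 15 of complex V, at medians of -0.09, -0.15, -0.10 and -0.11 on the log2 scale. Beside them, 4416 of 8772 genes measured were lower, and 1098 of the 2127 between the quartiles of the nuclear members' level. Of the 69 measured, 18 were lower and 3 higher on every plate (26.1% and 4.35%), beside 12.6% and 12.0% of all genes measured and 294 and 233 of the 2127 genes of like level. Cox4i1 lay close to equal at 330.1 against 338.6 CPM (-0.04), as did Atp5b at 913.6 against 950.1 CPM (-0.06, with 0.22 on plate 523 and -0.20 to -0.15 on the others).

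Ndufa8, an accessory subunit of complex I in the intermembrane space, was the nuclear member past the fold. It had 56.7 CPM in arterial-marked and 90.3 CPM in venous-marked cells (log2 -0.66). On plates 521 to 524 the arterial-marked cells had 39.8, 58.9, 63.7 and 60.8 CPM and the venous-marked cells 73.3, 70.9, 133.9 and 133.2 CPM, lower in arterial-marked cells on 4 of 4 plates. Without plate 524 the ratio was -0.57 and with cells classed at 50000 reads (and 5 reads of Mfsd2a) it was -0.52, both short of the fold. Its Mfsd2a-high and marker-poor values were 69.8 and 62.7 CPM. The gene lies on chromosome 2, 36036326 to 36049406, on the minus strand, and shares no window with another transcript.

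Among assembly factors, Ndufaf7, a methyltransferase that acts on complex I during assembly, had 32.1 CPM in marker-poor and 67.2 CPM in Mfsd2a-high cells (log2 -1.04, with -0.33, -1.35, -2.16 and -0.72 on the plates). It was read in 26.0% of cells at fixed depth, so 4 of 4 plates had the same sign but with a wide spread, and the value over alternatives ran from -1.36 to -0.39.

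**Figure D5:**
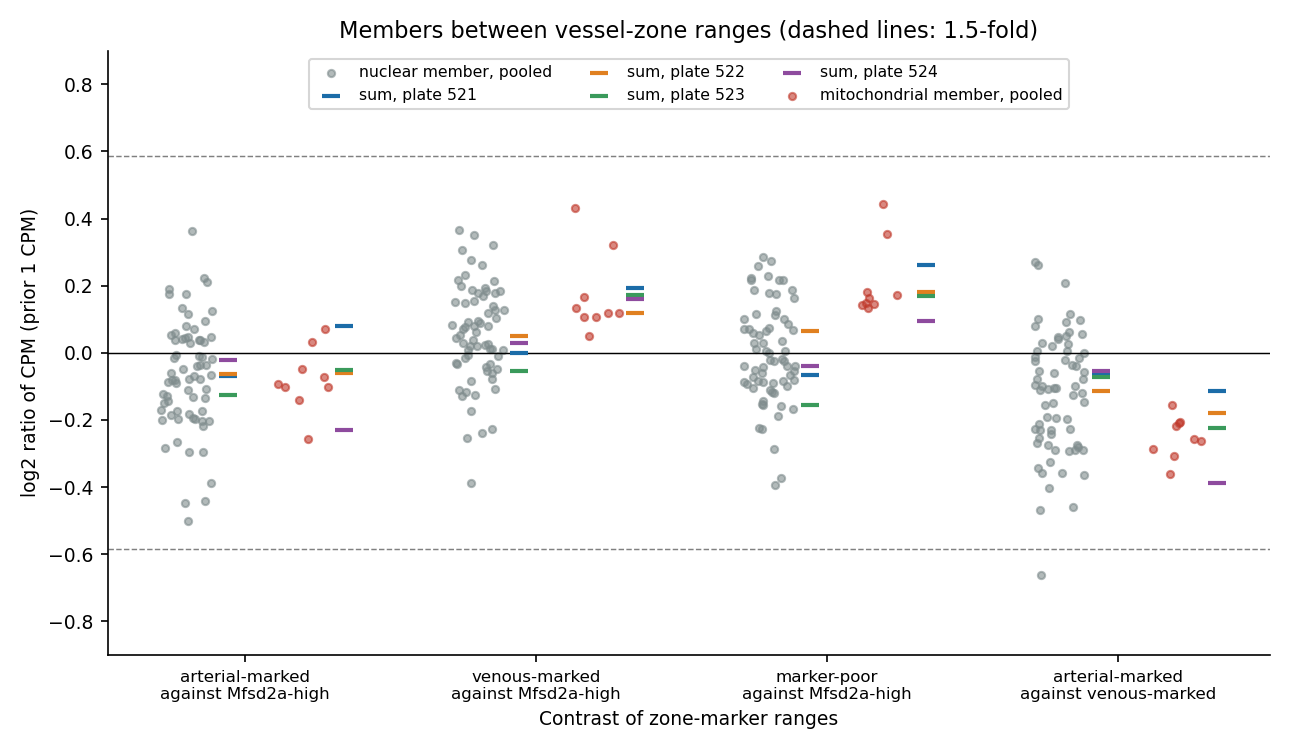
log2 ratio of CPM (prior 1 CPM) for each measured member in 4 contrasts of zone-marker ranges, grey for nuclear and red for mitochondrially encoded members, with bars for the sums on each plate and dashed lines at 1.5-fold. The 9 red points lie above 0 in venous-marked and marker-poor against Mfsd2a-high cells and below 0 in arterial-marked against venous-marked cells, and 1 grey point, Ndufa8, lies past a dashed line.

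For each marker singly, cells with a read at fixed depth were compared with cells without. The arterial and venous markers and Mfsd2a also define the ranges, on the same cells, so these values are no independent support and only show how the difference is spread over markers. The mitochondrial sum was lower in cells with the marker for 10 of 12 arterial markers (median log2 -0.06), and on all 4 plates for 6 of the 12. Hey1, a Notch target of arterial cells, gave 7660 against 8665 CPM (-0.18) and Efnb2, the arterial ephrin, 7775 against 8585 CPM (-0.14). Mgp and Fbln5, matrix genes of larger arteries, went the other way at 0.05 (-0.10 to 0.08 over plates) and 0.04 (-0.10 to 0.14). Eln, also a matrix gene of larger arteries, did not, at -0.03 (-0.11 to 0.16). For venous markers it was higher for 9 of 10 with enough cells (median 0.10), and on all 4 plates for 5 of the 9 that could be read on 4. Vwf gave 8706 against 7919 CPM (0.14). Ephb4 was the exception, with 8214 against 8601 CPM (-0.07). Icam1 was above 0 when pooled (0.03) but on only 1 of 4 plates. Capillary markers were mixed, 4 above and 5 below, with Mfsd2a at 8237 against 8739 CPM (-0.09). The plate values of Mfsd2a ran from -0.07 to 0.003, so its pooled value lay below all of them. Medians for the nuclear sum were -0.04, 0.03 and 0.00 for the 3 lists.

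Within a plate, the nuclear and the mitochondrial sums hardly tracked each other from cell to cell. The rank correlation over cells was 0.066, 0.150, 0.070 and 0.117 on plates 521 to 524, at 100000 reads per cell. This is a description, since cells share a library preparation and both sums share the cell's total. Pairs of mitochondrial genes ran together, with 0.711, 0.680, 0.594 and 0.603 for mt-Nd1 and mt-Cytb and 0.755, 0.676, 0.662 and 0.631 for mt-Co1 and mt-Cytb. Atp5b and Atp5a1, whose proteins alternate in the catalytic head of the ATP synthase, had 0.121, 0.010, 0.025 and 0.065. The level in the 90th percentile cell was 1.74 to 1.79 times that in the 10th percentile cell for the nuclear sum and 1.84 to 2.01 times for the mitochondrial sum.

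The 5 genes outside the members whose level over cells was most like the nuclear sum, of 8158 at 20 CPM or more, were Rps29 (mean rank correlation over plates 0.356), Atox1 (0.343), Rpl37a (0.341), Rplp1 (0.338) and Rpl38 (0.335). On single plates Rps29 had 0.397, 0.380, 0.359 and 0.288. Their exon unions measure 693, 541, 1410, 499 and 542 bases. Atox1 is a copper chaperone, and the other genes encode cytosolic ribosomal proteins.

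Other genes of the pathway were read from lists of related function. Complex II, the succinate dehydrogenase, had all 4 subunits lower in arterial-marked than in venous-marked cells (median -0.25), with Sdhd at 58.7 against 87.7 CPM (-0.57) and Sdha at 410.7 against 415.6 CPM (-0.02), and none past 1.5-fold. Against Mfsd2a-high cells Sdhd was lower at 58.7 against 105.0 CPM (-0.83), but with 1.16 on plate 521 and -1.88, -0.89 and -0.57 on the others. Of the subunits and carriers with other symbols (Ndufc1, Ndufc2, Cyc1, Cycs and the 2 mitochondrial ribosomal RNAs) all 6 were lower in arterial-marked than in venous-marked cells, at -0.30 to -0.08. Beside these and the complex II subunits, 4416 of 8772 genes measured were lower in arterial-marked than in venous-marked cells. Of 14 measured complex IV assembly and copper delivery genes, 1 was higher and 3 lower by 1.5-fold in that contrast, and of 9 biogenesis and transcription genes 1 was higher, where 10.6% of all genes were higher and 10.3% lower, so counts of 1 are near the background. The 1 higher biogenesis gene was Polrmt, the mitochondrial RNA polymerase, at 36.4 against 19.0 CPM (0.90, positive on all plates).

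The TCA cycle list had 0 of 15 past the fold in each of the 4 contrasts. Of the glycolysis list, 1 of 15 measured genes was higher and 4 lower by 1.5-fold in arterial-marked against venous-marked cells, beside 10.6% and 10.3% of all genes measured, and 8 were lower on every plate, beside 12.6%. No comparison of this list with the members was made. Pkm, pyruvate kinase, had 315.0 against 523.1 CPM (-0.73, with -0.63 to -0.74 on the plates) and Ldha, lactate dehydrogenase A, had 317.5 against 500.6 CPM (-0.66). Pfkm, a phosphofructokinase, was the higher one at 82.3 against 30.7 CPM (1.39), with -0.24 on plate 521. Ucp2, a mitochondrial carrier of the uncoupling protein family, had 392.9 CPM in marker-poor and 720.6 CPM in Mfsd2a-high cells (-0.87, with -1.03, -0.61, -0.61 and -0.60 on the plates). These lists give context and their genes are not members.

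Promoters of the nuclear members were searched for 4 short motifs, because the transcription factors NRF1, the ETS factor GABP, YY1 and SP1 are known regulators of respiratory genes. RefSeq promoters on GRCm38.p6, from 250 bases before to 50 after the start, had an entry for 62 of the 77 nuclear structural members, and each motif was looked for on both strands. The NRF1 core GCGCATGC was in 9 of 62 members (14.5%), against 3.05% of 27025 genes with an entry. The YY1 core AAGATGGC was in 8 (12.9%, against 3.19%), the ETS core CCGGAAGT in 5 (8.06%, against 4.31%) and the SP1 core GGGGCGGGG in 9 (14.5%, against 12.9%). The NRF1 core and its reverse complement GCATGCGC can overlap each other. A match describes the letters and is not evidence of binding. The windows of 30 bases below show the NRF1 core, in capitals, before the RefSeq start of Ndufa8, the nuclear member with the largest ratio between ranges, and of 3 further members for comparison. All lie on the minus strand and are read along the gene.
Ndufa8 at chr2:36049339-36049368, minus strand: gcgcttgcgcgtcgctggagacGCATGCGC
Cox6a1 at chr5:115349101-115349130, minus strand: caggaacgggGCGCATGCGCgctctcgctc
Atp5k at chr5:108434430-108434459, minus strand: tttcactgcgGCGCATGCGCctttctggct
Atp5g2 at chr15:102671070-102671099, minus strand: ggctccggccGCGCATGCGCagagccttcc
The core begins 8 bases before the RefSeq start in Ndufa8, 162 in Cox6a1, 50 in Atp5k and 42 in Atp5g2. GENCODE M21 places the starts elsewhere, at 36049406 for Ndufa8, 115348981 for Cox6a1, 108434448 for Atp5k and 102672352 for Atp5g2. By these starts the windows of Ndufa8 and Atp5g2 lie inside the gene. That of Atp5k overlaps the start and that of Cox6a1 lies before it. Between plates, Ndufa8 spanned 0.59 on the log2 scale and Cox6a1 0.15, Atp5k 0.25 and Atp5g2 0.30. The other members with the core spanned 0.13 to 0.41. The part of the core in these ranges was not tested.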

How the data were processed

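Single sorted cells were sequenced as full-length cDNA without molecular identifiers. The deposited table holds whole-number read counts per gene and cell. Per the submitters' processing notes, the authors used featureCounts, TopHat2 2.1.1, Subread 1.4.6-p5 and SAMtools 0.1.18 with GRCm38 and mm10. The sources used here give neither the annotation, the use of strand nor the handling of multiply matching reads, so a gene and an antisense gene that overlap it cannot be separated. Members and lists were chosen with earlier results of these data known.

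Counts were summed over cells and divided by total reads (CPM), with exact Poisson intervals at 95% and, for a count of 0, a limit of 3 counts. Log2 ratios use a prior of 1 CPM, and a gene is measured at 20 CPM on either side. Zone classes and shares of cells used counts thinned to 100000 reads per cell, which lost 0 cells. Plate values needed 10 cells in both classes. No doublet caller was run and no cell was removed. Ratios were checked on simulated counts. Named genes were every mitochondrially encoded member, the 2 highest nuclear members per kb in each complex, up to 3 members per contrast and direction past 1.5-fold with the same sign on every plate, the 5 with the widest plate range, tissue isoforms with their partners, and members with no read; Ndufb4, Atp5a1, Atp5k and the pathway genes outside the members were singled out after their values were seen. Of 99 members 98 matched GENCODE M21. Cells were 1 pooled sample, so no test was made, and the planned comparison of genotypes was not possible because columns carry no genotype. Python 3.11.15, numpy 2.4.6, scipy 1.17.1 and edgeR 4.0.16 (TMM factors) were used.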

Additional observations from a re-analysis of the deposited data

How the results depend on the processing

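Of 320 alternative values of the sums and counts of members, 286 counted as the same and 34 as moved. Counts of members were the same within a 1.5-fold change, and the other values within their plate or counting spread. A reversal could be called only for a ratio of sums that exceeded the SD of its plate values, and 0 were called. The small nuclear ratios of venous-marked and marker-poor to Mfsd2a-high cells lay within that SD, so their changes of sign could not be called. For venous-marked cells (0.020) the ratio was -0.008 with TMM factors and -0.001 without plate 524. For marker-poor cells (-0.039) it was 0.025 with 4 or more markers and 0.013 without plate 523. The mitochondrial ratio of arterial-marked to venous-marked cells ran from -0.26 to -0.16 and the nuclear one from -0.11 to -0.05, the latter value (-0.053) with 4 or more markers. Counts at the 1.5-fold mark are small and moved by single members. Lower in arterial-marked against Mfsd2a-high cells: 1 with thinning to 50000 reads (Mfsd2a cut then at 5 reads), 1 without plate 521, 1 without plate 523 and 1 with plates at equal weight. Lower in arterial-marked against venous-marked cells: 0 with thinning to 50000 reads, 3 without plate 521, 2 without plate 523, 0 without plate 524 and 0 at 2-fold. Without plate 521, 1 was lower in marker-poor against Mfsd2a-high cells. With no filter on low values, 1 was lower in venous-marked and 1 in marker-poor against Mfsd2a-high cells, and 1 was higher in arterial-marked against venous-marked cells. With assembly factors, 1 was higher in venous-marked, and 1 higher and 1 lower in marker-poor, against Mfsd2a-high cells. With equal weight, 1 was higher in venous-marked against Mfsd2a-high cells. At 1.2-fold, higher and lower counts were 1 and 8 (arterial-marked against Mfsd2a-high), 5 and 1 (venous-marked), 2 and 3 (marker-poor), and 1 and 17 (arterial-marked against venous-marked). The log2 plate range of the nuclear sum was 0.119 with TMM factors, 0.073 as the mean of each cell's CPM, 0.056 without plate 521 and 0.024 without plate 524; for the mitochondrial sum it was 0.167, 0.204, 0.082 and 0.142. The difference in median log2 of nuclear over mitochondrial sum between arterial-marked and venous-marked cells (0.089) was 0.077 with assembly factors and 0.029 without the 5 highest nuclear members. Equal weighting of plates and a venous list without inflammation-responsive genes (Vcam1, Lcn2, Icam1, Lrg1 and Il1r1) were chosen after seeing the data. That list gave 293 venous-marked cells (112, 91, 38 and 52 on plates 521 to 524), against 429 with the full list. The cause of the shifts in these alternative values was not tested. No paired analysis was possible because no column could be given a genotype or replicate. Depth limits the ratios of members read in few cells.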
